A study of Mus musculus with 24 samples.

Results

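Of 1153700 different fragment pairs called in cis in any of 24 promoter capture Hi-C libraries, 37111 were called in all 8 wild-type (WT) E11.5 libraries of mouse facial neural crest. A total of 5597 of these 37111 pairs (15.1%) were called in neither E8.5 library, and these 5597 interactions are the subject here. They were chosen by the calls themselves, so their presence at E11.5 and absence at E8.5 is a description and was not tested. Of the rest, 26272 pairs were called in all 8 E11.5 WT libraries and in both E8.5 libraries and serve below as the reference interactions, and 5242 were called in 1 of the 2 E8.5 libraries.

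Promoter capture Hi-C, here on chromatin cut with HindIII, joins DNA segments that lie close together in cross-linked nuclei and pulls out junctions that hold a promoter fragment, called the bait. Cranial neural crest cells leave the dorsal neural tube, migrate into the face and pharyngeal arches and form most facial bone, cartilage and connective tissue. Between those stages the cells pass from a progenitor state to mesenchyme, and distant enhancers that contact promoters are a known layer of that programme. Ezh2 is the catalytic subunit of PRC2, a Polycomb complex that methylates histone H3 and holds developmental genes in a repressed, often clustered, chromatin state.

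Every group had 2 replicates. The E8.5 group was labelled as WT neural crest progenitors. The E11.5 WT groups and the E11.5 Ezh2cKO groups, a conditional knockout of Ezh2, each covered 4 tissues called FNP, Mx, Md and PA2. The labels do not spell these out, and the field commonly uses them for frontonasal process, maxillary process, mandibular process and pharyngeal arch 2. The Hoxa2PTE-36kb-del groups, carrying a 36 kb deletion, covered Md and PA2, and the Hoxa2PTE-42kb-del group, carrying a 42 kb deletion, covered PA2, both at E11.5. The protocol named flow sorting of crest for Wnt1::Cre;ROSARFP and Ezh2cKO embryos. The sources used here do not give whether deletion embryos were sorted, which Cre made the knockout, or the deletions' positions. Each library was listed as its own batch, so batch was not tested. In bulk cells, a contact made by fewer cells and a weaker contact in every cell cannot be told apart, and no level of a cell type marker was measured by this assay.

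The libraries held 142284 to 190343 called interactions, and read depth was unknown. A pair counted as called when its CHiCAGO score, the caller's measure of excess over the background of its own library, reached 5. Being absent at E8.5 therefore meant falling under that score and not having no contact. The lowest of the 8 WT scores of an interaction had a median of 5.79 in the 5597 interactions and of 7.16 in the reference interactions, and it lay under 6 in 57.6% and 27.9% of them. Just inside the rule, 3223 interactions had a lowest WT score under 6. Just outside it, 5477 pairs were called in 7 of 8 WT libraries and no E8.5 library, and the 5242 pairs called in a single E8.5 library had a median E8.5 score of 6.1. Among the pairs called in all 8 WT libraries, 30.0% of the 8000 that were absent in E8.5 replicate 2 were called in E8.5 replicate 1. The reverse share was 33.7% of 8436, and without E8.5 replicate 2 the rule would take those 8436 pairs.

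A total of 3714 interactions (66.4%) had an E8.5 call from the same bait to a fragment within 5 kb of the E11.5 end, and 1883 (33.6%) had none. Their lowest WT scores had medians of 5.83 and 5.72. Their median distances were 330.8 kb and 284.2 kb. Baits named below differed in this. An E8.5 call within 5 kb was found for all 18 interactions of Gm36317, all 10 of Mest, all 7 of Pax9 and all 6 of Six2. It was found for 17 of 20 of Chordc1 and 18 of 24 of Zfp324. For Mir214 it was 5 of 36, for Smad7 5 of 26 and for Tbx2 2 of 16.

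Of the 5 baits with the most such interactions, 3 carried microRNA hairpins, at 2 loci, and those of 2810442N19Rik and Smad7 did not. Mature sequences are shown because these small RNAs, which repress messenger RNAs that pair with their seed, are products of those 2 loci. They are from RefSeq (GRCm38.p6), printed 5′ to 3′ with the seed (bases 2 to 8) in capitals. The first 4 arise from 1 host transcript, Dnm3os, on the plus strand of chromosome 1, the next from chromosome 9, and the rest from baits with fewer interactions.
miR-199a-5p: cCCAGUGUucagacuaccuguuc
miR-199a-3p: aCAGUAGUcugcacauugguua
miR-214-5p: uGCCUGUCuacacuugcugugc
miR-214-3p: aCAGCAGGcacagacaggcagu
miR-125b-5p: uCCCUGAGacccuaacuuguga
miR-125a-5p: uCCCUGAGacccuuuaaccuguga
miR-132-3p: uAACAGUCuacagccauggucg
miR-212-3p: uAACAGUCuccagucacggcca
By seed, miR-125b-5p (chr9:41581940-41581961, plus strand) and miR-125a-5p (chr17:17830817-17830840, plus strand) shared CCCUGAG, although their baits lie on different chromosomes. The miR-132-3p and miR-212-3p seeds were also the same, AACAGUC, and both hairpins lie in the bait named Hic1. The 4 mature RNAs of the Dnm3os transcript had 4 different seeds. In all, 84 baits with at least 1 of the interactions held 108 hairpins, of 637 hairpins in any bait, and every one of the 108 had a mature sequence in the table.

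The Mir214 bait (chr1:162222740-162224171) had 36 of the 5597 interactions, the most of any bait, among 37 pairs called in all 8 WT libraries. Mir214 yields miR-214, a microRNA of mesenchymal tissues. It had 1 and 0 cis calls in the E8.5 libraries, and a lowest, median and highest of 43, 50.5 and 56 in the WT libraries. In Ezh2cKO these were 42, 48.5 and 59, in the 36kb deletion the 4 libraries (here and below, Md then PA2) had 46, 47, 56 and 47, and in the 42kb deletion they had 43 and 47. All E11.5 groups overlapped, while both E8.5 values lay far below every E11.5 value. Across the 8 Ezh2cKO libraries 95.5% of the possible calls of its 36 interactions were present, and across the 6 deletion libraries 95.8%.

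The neighbouring bait with the Dnm3os start and Mir199a-2 (chr1:162216614-162217817) had 35 interactions. Its cis calls were 6 and 5 at E8.5 and 53, 58.5 and 68 (lowest, median, highest) in WT. They were 48, 57.5 and 60 in Ezh2cKO, 60, 58, 71 and 63 in the 36kb deletion, and 68 and 62 in the 42kb deletion. The 42kb values lay within the WT range, and the highest 36kb value, in PA2, was the highest of all. Dnm3os is transcribed from within an intron of the gene for dynamin 3 and is the precursor of miR-199a and miR-214.

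The other ends of both baits fell into the same stretches. For Mir214, 15 interactions ended at chr1:161971535-162003610, over 4930558K02Rik, Pigc and the near end of Dnm3. Another 13 ended at chr1:162011558-162061170 within Dnm3, and 7 ended on the opposite side at chr1:162298837-162331360. For the Dnm3os bait, 12 ended at chr1:161965829-161995305 and 15 at chr1:162012271-162061170. The bait of the long noncoding RNA 2810442N19Rik (chr1:162003611-162011478) looked back from there, with 34 interactions, 28 of them ending in 1 stretch at chr1:162146582-162242009 that holds Dnm3os. None of the 34 joined the 2810442N19Rik bait to the Mir214 or Dnm3os bait itself. The E8.5 counts of the 2810442N19Rik bait were higher, at 26 and 30, against 70, 74 and 81 in WT. In total 127 of the interactions (2.3%) had both ends between the far ends of 4930558K02Rik and Dnm3. These are contacts of adjoining fragments within 1 locus and are not independent of each other. The baits that hold only noncoding genes are named because they held the most interactions.

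**Figure D1:**
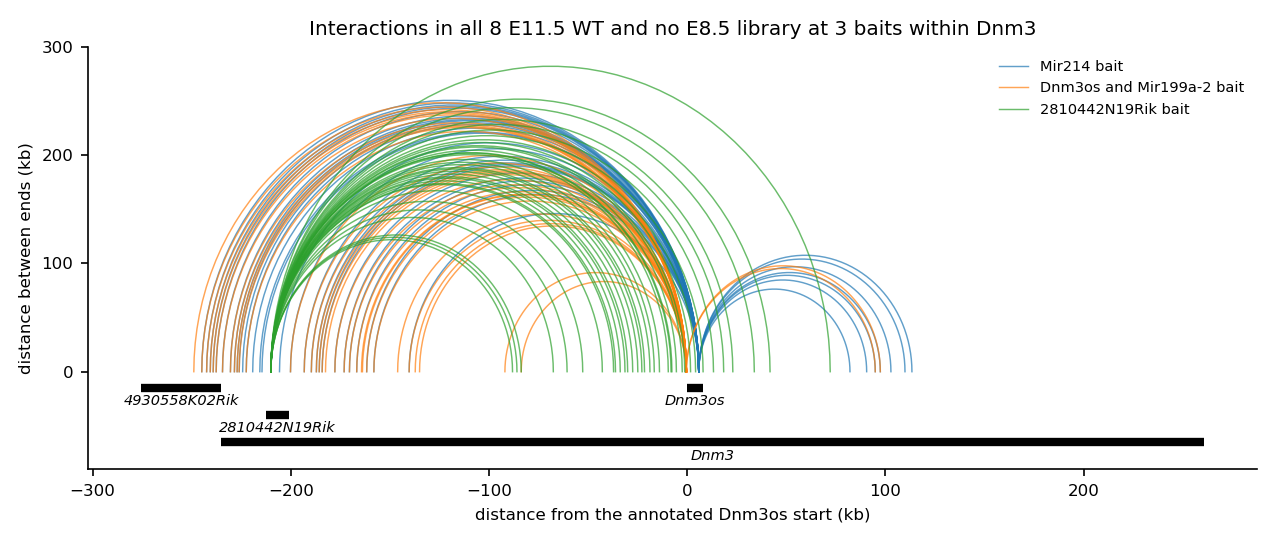
Interactions called in all 8 E11.5 WT libraries and in neither E8.5 library at 3 baits within Dnm3, drawn as arcs between fragment centres. The horizontal axis is distance from the annotated Dnm3os start in kb, the height is the distance between the ends in kb, and black bars are annotated genes. The Mir214 bait (36 arcs) and the Dnm3os bait (35) reach mostly to the left, and the 2810442N19Rik bait (34) reaches back toward Dnm3os.

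The promoter of Dnm3os is shown because the locus leads the set. The window is 250 bases before to 30 after the start (RefSeq, GRCm38.p6, chr1:162217373-162217652, plus strand), and the capitals mark its only match to CATNTG, an E-box form that Twist-family factors can bind.
Dnm3os: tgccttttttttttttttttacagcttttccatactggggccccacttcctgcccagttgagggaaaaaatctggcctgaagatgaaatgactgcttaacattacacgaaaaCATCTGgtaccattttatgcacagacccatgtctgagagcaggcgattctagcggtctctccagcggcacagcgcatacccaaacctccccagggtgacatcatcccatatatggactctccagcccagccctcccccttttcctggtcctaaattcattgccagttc
CATNTG was searched on both strands, and 32.5% of 21263 protein-coding promoter windows of this length hold it, so a match is common. In promoters of bait genes with at least 1 of the interactions the share was 27.3%, and 29.8% in promoters of all bait genes. GC content was 48.6% in the Dnm3os window, against a median of 56.1% over all protein-coding windows.

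The other leading microRNA locus was Mir125b-1, in the bait chr9:41579577-41583464 within the host gene Mir100hg. It had 30 interactions, with 7 and 6 cis calls at E8.5 and 55, 65.5 and 80 in WT. Ezh2cKO libraries had 56, 62 and 81, the 36kb libraries 57, 59, 67 and 61, and the 42kb libraries 54 and 56. The E11.5 groups overlapped except that 1 of the 42kb values lay just below the lowest WT value. Its interactions spanned 221.6 to 380.5 kb, 7 of them to chr9:41207273-41244203 and 8 to chr9:41802870-41827432, on opposite sides of the bait.

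Smad7, the inhibitory SMAD that limits TGF-beta and BMP signalling, led the protein-coding baits with 26 of the 27 pairs called in all 8 WT libraries. Its bait (chr18:75362247-75369683) had 0 and 1 cis calls at E8.5 and 39, 59 and 68 in WT. The values were 43, 59.5 and 74 in Ezh2cKO, 47, 41, 30 and 48 in the 36kb deletion and 38 and 31 in the 42kb deletion. All 6 deletion values were thus under the WT median, with log2 differences of -0.16 (SE 0.22) for the 36kb and -0.30 (SE 0.31) for the 42kb deletion after scaling to each library's total. No test is given, because the WT calls also chose the interactions. The interactions ended mostly in Dym on the left, 9 of them at chr18:75172649-75198834, and in Ctif on the right.

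**Figure D2:**
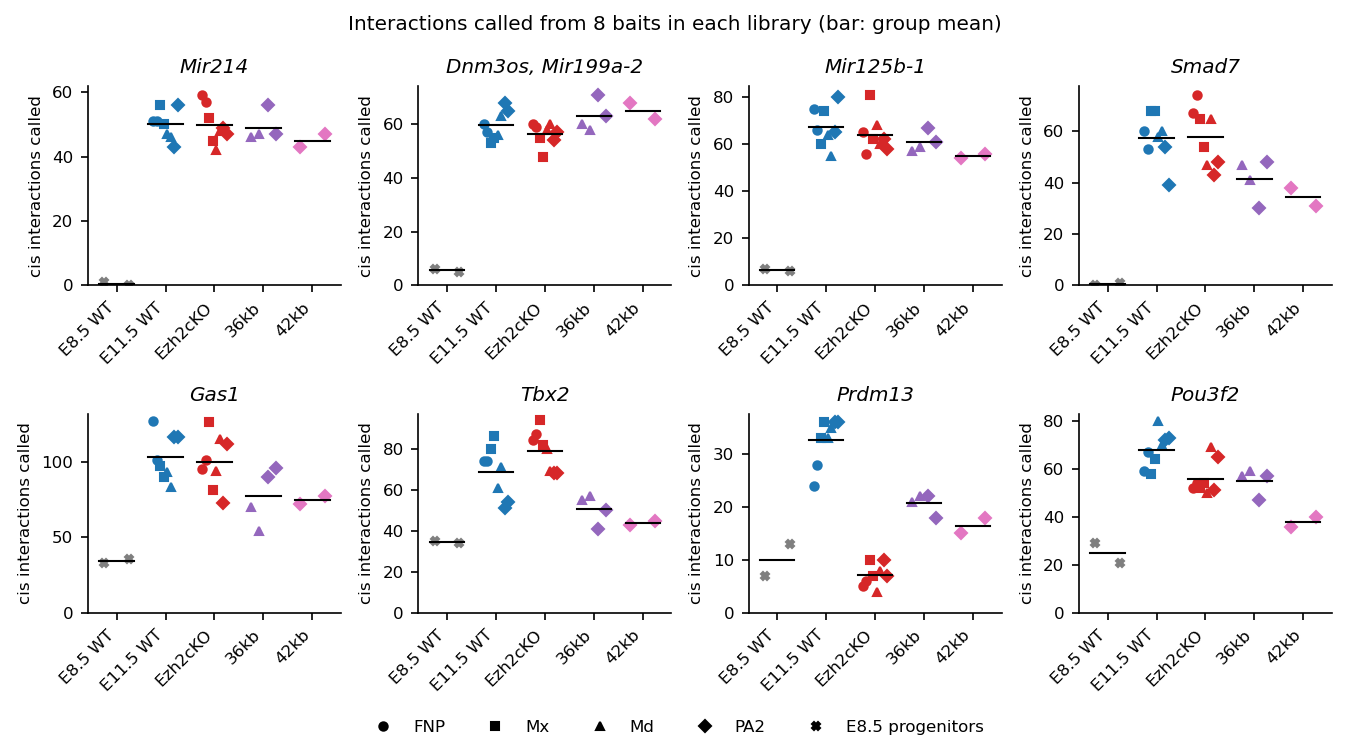
Number of cis interactions called from 8 baits in each of the 24 libraries, by group, with marker shapes for tissues and a bar for the group mean. Mir214 and Smad7 had 0 or 1 call at E8.5 and at least 30 in every E11.5 library, and Prdm13 had 4 to 10 in Ezh2cKO against 24 to 36 in WT.

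Further baits with many of the interactions carried genes of mesenchyme and its signals, alongside genes with general roles. Gas1, a co-receptor for hedgehog ligands, had 19, and an unnamed bait beside it (chr13:60283399-60297605) had 22, of which 1 joined it to the Gas1 bait. The Gas1 bait had 33 and 36 cis calls at E8.5, 83, 99 and 127 in WT, 73, 98 and 126 in Ezh2cKO, 70, 54, 90 and 96 in the 36kb deletion and 72 and 77 in the 42kb deletion. Tbx2, a T-box repressor of facial and limb mesenchyme, had 16, all ending within the neighbouring gene Bcas3, and 11 of them at chr11:85604515-85645502. Its cis calls were 35 and 34 at E8.5 and 51 to 86 in WT, with the 4 lowest WT values in Md and PA2.

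Cdkn1c, an imprinted inhibitor of the cell cycle, had 13 interactions, 8 of them to chr7:143228957-143261436 in Kcnq1 and Kcnq1ot1, the noncoding RNA of its imprinted domain. Kat6b, a histone acetyltransferase gene, had 13 and ended in Adk. Bmi1, a subunit of Polycomb repressive complex 1, had 12, all in 1 stretch of 37.2 kb at chr2:18026014-18063176 that overlaps Mllt10 and Skida1. Gsc, a homeobox gene of the jaw region, had 11, which ended in or near Dicer1 and Syne3. Wnt11, a ligand of noncanonical Wnt signalling, had 10, most of them in Uvrag, and Ebf3, a transcription factor of mesenchyme, had 10 at 1251.9 to 1476.1 kb. Mest, an imprinted mesenchymal gene, also had 10.

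Among baits whose genes are less tied to crest, Zfp324, a zinc finger gene, had 24 interactions at a median of 45.3 kb, most of them among neighbouring zinc finger and other genes, and Chordc1, a chaperone partner, had 20 that all lay 2571.2 to 3014.0 kb away. Syf2, a splicing factor gene, had 16 with 3 ends in Runx3. The bait of Htr6 and Nbl1, a BMP antagonist gene, had 16 over Capzb and Slc66a1, and Lpin2, of lipid synthesis, had 15 over Myom1 and Myl12a. Csmd3 had 13 at up to 3963.6 kb.

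Of genes named whatever their values, Six2, a homeobox factor of frontonasal and other mesenchyme, had 6 interactions, Alx4, a frontonasal homeobox factor, had 4, Ets1, a factor of early crest, had 1 and Hoxa2, which specifies arch identity, had 0. An E8.5 call from the same bait lay within 5 kb for all 6 of Six2, 2 of 4 of Alx4 and 0 of 1 of Ets1. Six2 had 6 and 7 cis calls at E8.5 and 18, 30.5 and 40 in WT. Alx4 had 6 and 1 at E8.5 and 15, 24.5 and 47 in WT. Within WT, the FNP and Mx libraries of Alx4 had 31 to 47 calls and those of Md and PA2 15 to 18, without overlap.

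The interactions were spread over 2807 baits, of 9354 baits with any pair called in all 8 WT libraries. A total of 1580 of these (56.3%) had only 1, 276 had 5 or more and 51 had 10 or more. The 51 held 762 interactions, 13.6% of the set.

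The share of named baits with at least 1 of the interactions was 13.3% (2181 of 16420) and the share with at least 5 was 1.28%. Of the 16420, 7438 had any pair called in all 8 WT libraries, and only those could hold one. Against that background, lists of genes, which overlap in part, were described by counts with no test. The list of maxillary genes had such an interaction at 10 of 10 baits, among them Lhx8, Barx1, Shox2 and Wnt5a. The list of facial mesenchyme factors had one at 29 of 42 baits (69.0%), with Tbx2 at 16, Ebf3 at 10 and Tbx18 and Hic1 at 8 each. The frontonasal list had one at 8 of 13 (61.5%), the mandibular list at 9 of 16 (56.2%), the early neural crest list at 10 of 20 and the second arch list at 6 of 15. Hox baits had one at 22 of 36 (61.1%), yet only 7.7% of their pairs called in all 8 WT libraries were of this kind, since most Hox pairs were also called at E8.5. For the TGF-beta and BMP list the count was 17 of 49 baits and 34.2% of pairs, of which Smad7 held 26 of 63 interactions.

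Wnt genes had at least 1 at 19 of 55 baits (34.5%), led by Wnt11 with 10 and Wnt5a and Nkd2 with 6 each. The skeletal and connective list had 11 of 32 baits, with Col3a1, a fibrillar collagen gene, at 8, and the Fgf list had 9 of 28. Lists for other cell types had fewer, with 0 of 12 neuronal and glial baits, 1 of 11 muscle baits and 1 of 13 blood baits. Epithelial baits had 2 of 13 and endothelial baits 3 of 12, both above the 13.3% of all named baits. Housekeeping genes had 8 of 39 and Polycomb subunits 2 of 27. A bait without any pair called in all 8 WT libraries could hold none. Baits with such a pair were 3 of 12 neuronal and glial, 5 of 11 muscle and 5 of 13 blood. They were 5 of 13 epithelial and 6 of 12 endothelial, against 34 of 42 facial mesenchyme baits. Facial mesenchyme baits had a median of 7.0 pairs called in all 8 WT libraries and all named baits a median of 0.0, and the part of this in the counts was not tested.

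By distance, the 5597 interactions had a median of 314.7 kb between the ends (quartiles 164.3 and 709.6) and the reference interactions 229.9 kb (111.2 and 423.1). Those of 1 Mb or more made up 17.3% and 6.3%, and those under 100 kb 13.9% and 22.8%. A bait lay at both ends of 11.4% (636) of the interactions and 22.2% of the reference. The other end lay in a protein-coding gene about as often, in 57.7% and 56.5%, but in the bait's own gene in 3.2% and 5.4%.

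**Figure D3:**
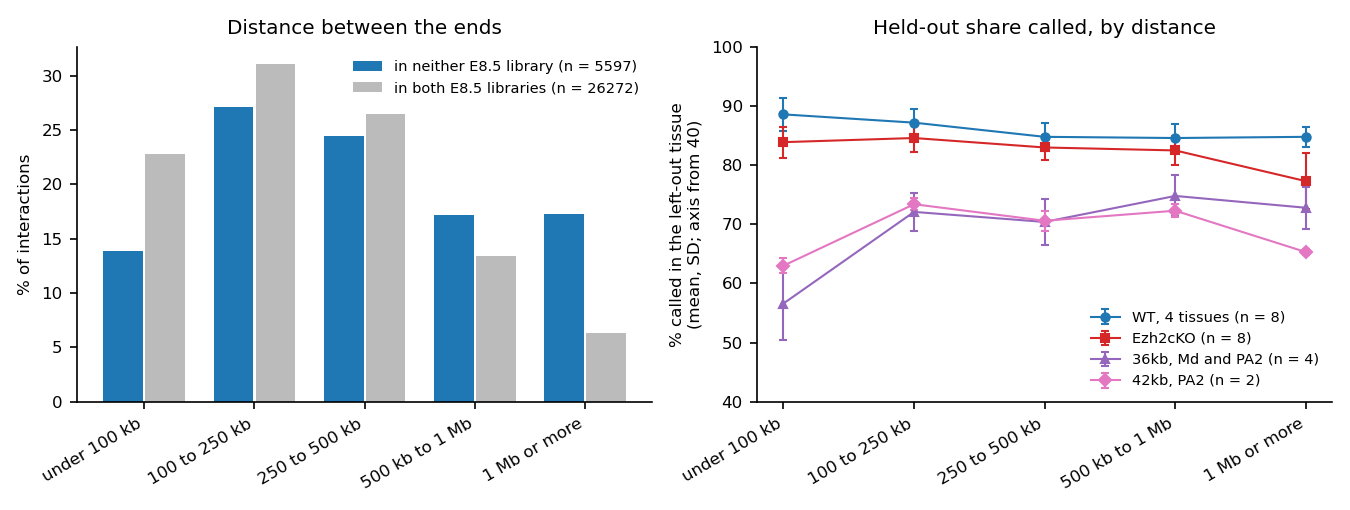
Left, share of interactions in each distance band, for those in neither E8.5 library (blue) and in both (grey). Right, mean share called in libraries of a tissue left out of the choice, by band, with SD over libraries; the vertical axis starts at 40%. The blue set holds more at 1 Mb or more (17.3% against 6.3%), and the 36kb share is lowest under 100 kb, at 56.6%.

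To see how many stay in the mutants, calls of the 5597 interactions were counted in each library. Ezh2cKO libraries called 86.5% ± 1.89 (SD, n = 8) of them, with a lowest of 83.7% and a highest of 89.9%. The 36kb libraries called 75.8% ± 2.82 (SD, n = 4) and the 42kb libraries 75.7% ± 1.33 (SD, n = 2). The reference interactions were called in 93.1% ± 0.77, 86.8% ± 2.28 and 87.8% ± 0.40 of cases in the same libraries. These WT libraries chose the interactions, so WT is at 100% by the rule and these shares allow no test against WT.

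A total of 3081 interactions (55.0%) were called in all 8 Ezh2cKO libraries, 2165 (38.7%) in all 6 deletion libraries and 1649 (29.5%) in all 14. The reference had 57.2% in all 14. At the other end, 96 (1.7%) were called in no Ezh2cKO library and 139 (2.5%) in no deletion library, against 1.8% of the reference for each. Interactions with an E8.5 call within 5 kb were present in 87.0% of Ezh2cKO and 77.1% of deletion cases, and those without in 85.6% and 73.0%.

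**Figure D4:**
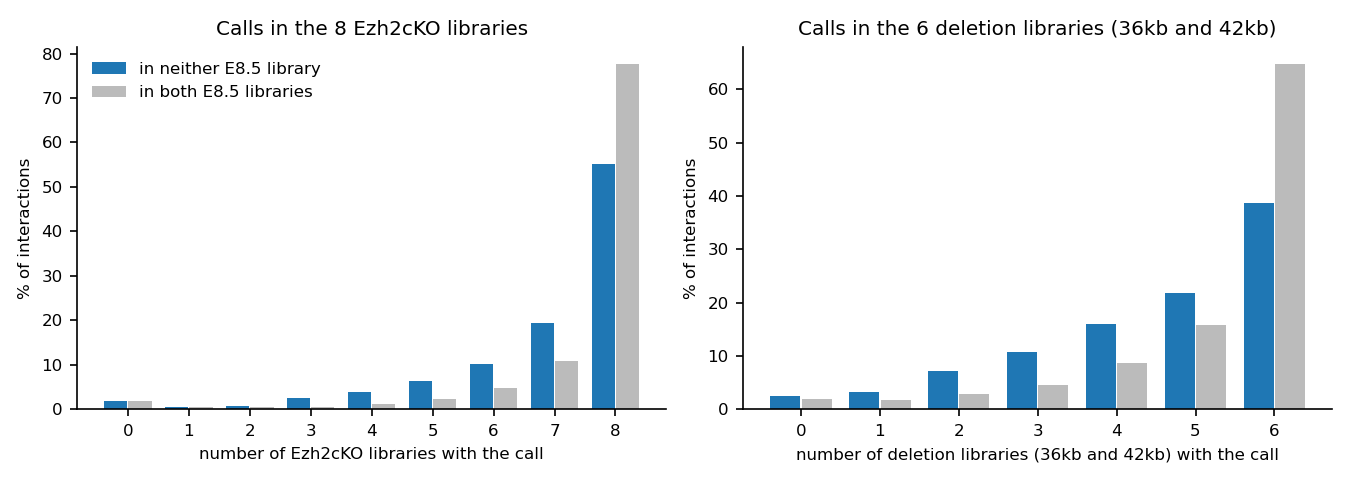
Share of interactions by the number of Ezh2cKO libraries (left, of 8) or deletion libraries (right, of 6) that called them, for interactions in neither (blue) or both (grey) E8.5 libraries. All 8 Ezh2cKO libraries called 55.0% of the first and 77.6% of the second set, and the shares called in none are close, at 1.7% and 1.8%.

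For a comparison in which WT is not fixed by the rule, interactions were chosen again for each tissue and then read in the tissue left out. The choice used the 6 WT libraries of the other 3 tissues and the 2 E8.5 libraries. It still used no mutant library, so it can favour WT over any mutant. Each tissue's WT libraries also helped choose for the other tissues, and the permutations did not repeat the choice. The choice gave 7201 to 7484 interactions per tissue. WT libraries called 85.9% ± 1.95 (SD, n = 8) of them and Ezh2cKO libraries 82.5% ± 2.35 (SD, n = 8). The difference of -3.40 percentage points had p = 0.00309 in an exact two-sided permutation test within tissues, and 0.0123 adjusted over 4 tests. A total of 7 of 8 Ezh2cKO libraries lay below both WT libraries of their tissue. The tissue differences were -5.50 points for FNP, -2.10 for Mx, -4.28 for Md and -1.73 for PA2.

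The reference interactions chosen in the same way had tissue means of 95.2 to 96.1% in WT and 91.3 to 92.6% in Ezh2cKO. The difference relative to the reference was 0.567 points, with p = 0.355 by the same exact permutation test (0.355 adjusted). Taking interactions of a score of at least 7 instead made it 2.36 points with p = 0.00926 by the exact test, and taking any E8.5 call within 5 kb as present made it -0.183 points with p = 0.639, so its sign depended on these choices.

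The 36kb libraries called 70.2% ± 3.17 (SD, n = 4) of the held-out interactions and the WT libraries of Md and PA2 84.6% ± 1.43 (SD, n = 4). All 4 lay below both WT libraries of their tissue. The difference was -14.4 points with p = 0.0556 in the exact permutation test, the smallest p that design allows, and 0.111 adjusted. The 42kb libraries, at 69.2% and 70.3%, lay below the PA2 WT libraries at 83.4% and 83.6%, a difference of -13.8 points whose smallest possible exact p is 0.333, adjusted 0.355.

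The deletion libraries had fewer called interactions in all, 142284 to 158363 against 168670 to 176164 in WT. With the 136997 highest-scoring cis calls of each library, the differences were -10.6 points for the 36kb and -11.2 for the 42kb deletion. With any E8.5 call within 5 kb taken as present they were -8.37 and -7.27 points. Reference interactions were also lower in these libraries, at 84.4 to 85.8% by tissue against 95.2 to 96.1% in WT.

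Under 100 kb the 36kb libraries called 56.6% ± 6.14 (SD, n = 4) of held-out interactions and their WT libraries 86.8% ± 2.55. The reference shares there were 74.4% and 96.7%. From 500 kb to 1 Mb the corresponding shares were 74.8% and 83.7%. In Ezh2cKO the lowest share was at 1 Mb or more, at 77.3% ± 4.69 (SD, n = 8) against 84.8% ± 1.73 in WT, with 83.1% and 94.2% of the reference. These values by distance were not tested.

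**Figure D5:**
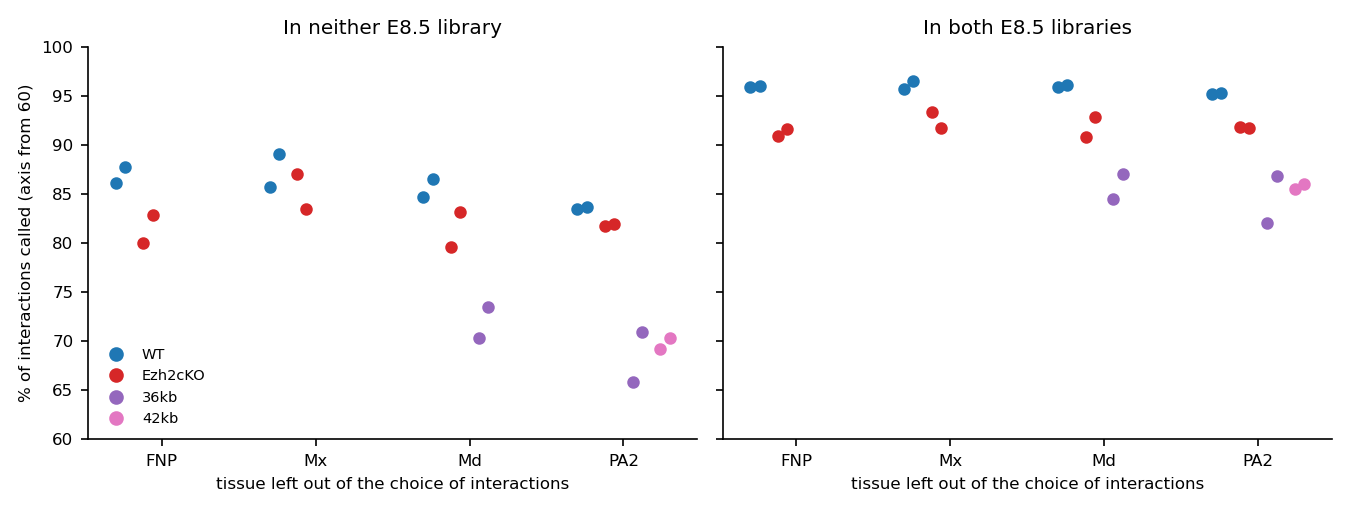
Share of interactions called in each library of the tissue left out of their choice, for interactions in neither (left) or both (right) E8.5 libraries, with a point per library; the axis starts at 60%. Ezh2cKO points (red) lie mostly just below WT (blue), and the 36kb (purple) and 42kb (pink) points lie between 65.9% and 73.5% on the left.

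The interactions rarely called in Ezh2cKO included a cluster between the promoters of Prdm13 and Pou3f2 and long contacts of other patterning genes. A total of 42 (0.75%) were called in at most 1 Ezh2cKO library and in at least 5 deletion libraries, against 1.72% of the reference. Of the 42, 9 (21.4%) had a bait of the Hox or patterning lists, against 2.1% of all 5597. All 9 had an E8.5 call from the same bait within 5 kb. Such a call was found for 2 of 5 interactions of the Prdm13 bait and 1 of 14 of the Pou3f2 bait. The median distance of the 42 was 793.1 kb. The baits named most often were Pou3f2, in 7, and Prdm13, in 5. These join adjoining fragments of the same 2 stretches, 788.7 to 815.4 kb apart, and are not independent of each other. The median distance of the 42 falls within that range.

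Pou3f2 encodes a POU homeodomain factor of neural cells and Prdm13 a PR-domain repressor of dorsal neural tube and retinal neurons. All 12 interactions that join fragments within 15 kb of the Prdm13 bait to fragments within 15 kb of the Pou3f2 bait, 788.7 to 815.4 kb apart, were called in 0 of 8 Ezh2cKO libraries. Each was called in 4 to 6 of the 6 deletion libraries, and 9 in all 6. The pair of the 2 baits themselves, Prdm13 at chr4:21685111-21691952 and Pou3f2 at chr4:22482241-22493011, lay 799.1 kb apart and had a lowest WT score of 10.67 and a median of 16.22. It was called in 4 of 4 36kb and 2 of 2 42kb libraries.

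The promoters of both genes are shown because they lie at the ends of these contacts, which no Ezh2cKO library called. CG is marked because Polycomb complexes are known to gather at CpG-rich promoters. Polycomb binding was not measured, and a link between CG content and the calls was not tested. Each window is 250 bases before to 30 after the start (RefSeq, GRCm38.p6, minus strand, Prdm13 chr4:21685934-21686213 and Pou3f2 chr4:22488337-22488616), with each CG in capitals.
Prdm13: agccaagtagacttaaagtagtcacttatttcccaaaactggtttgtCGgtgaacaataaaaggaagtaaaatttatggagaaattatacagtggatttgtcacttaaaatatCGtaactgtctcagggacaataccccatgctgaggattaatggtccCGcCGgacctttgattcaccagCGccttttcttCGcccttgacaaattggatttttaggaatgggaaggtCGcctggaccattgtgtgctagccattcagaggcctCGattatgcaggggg
Pou3f2: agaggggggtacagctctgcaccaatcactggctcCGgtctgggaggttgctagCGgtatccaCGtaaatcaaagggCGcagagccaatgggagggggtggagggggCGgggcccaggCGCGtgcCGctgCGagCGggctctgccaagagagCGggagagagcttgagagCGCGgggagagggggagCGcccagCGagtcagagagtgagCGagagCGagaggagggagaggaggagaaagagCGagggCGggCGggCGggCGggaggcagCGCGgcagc
The Prdm13 window held 8 CG and the Pou3f2 window 24, with observed over expected CG of 0.61 and 0.84. The median ratio was 0.55 over 21263 protein-coding windows and 0.69 over those of bait genes with at least 1 of the interactions. Prdm13 thus lay below the latter median and Pou3f2 above it. GC content was 43.6% in the Prdm13 window and 69.3% in the Pou3f2 window.

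The Prdm13 bait had 7 and 13 cis calls at E8.5 and 24, 34 and 36 (lowest, median, highest) in WT. In Ezh2cKO it had 4, 7 and 10, below every WT value. The 36kb libraries had 21, 22, 22 and 18 and the 42kb libraries 15 and 18, between the other groups. The log2 difference from WT was -2.18 (SE 0.15) in Ezh2cKO, -0.56 in the 36kb and -0.99 in the 42kb deletion. These are descriptions with no test, since the bait was named for how few of its interactions were kept in Ezh2cKO.

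The Pou3f2 bait had 29 and 21 cis calls at E8.5 and 58, 68.5 and 80 in WT. It had 50, 53 and 69 in Ezh2cKO, 57, 59, 47 and 57 in the 36kb deletion and 36 and 40 in the 42kb deletion. The Ezh2cKO and WT values overlapped, while both 42kb values were below every WT value. The log2 difference from WT was -0.30 (SE 0.09) in Ezh2cKO and -0.81 (SE 0.18) in the 42kb deletion, again given without a test.

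Others of this kind joined patterning genes over long distances. The Zic1 bait, of a zinc finger factor of dorsal neural tube and crest, was joined over 3638.1 kb to a fragment at chr9:87726305-87727558 beside the Tbx18 bait, in 0 of 8 Ezh2cKO, 3 of 4 36kb and 2 of 2 42kb libraries. Pax2 and Tlx1, a paired-box and a homeobox gene 394.4 kb apart, were joined in 0 Ezh2cKO and all 6 deletion libraries. Both this and the Zic1 interaction had an E8.5 call from the same bait within 5 kb. The interactions of the listed baits Nkx2-3 and Zic1, 4 each, and Pax2, 3, had none of their possible Ezh2cKO calls. Of the possible deletion calls, Zic1 had 50%, Nkx2-3 66.7% and Pax2 83.3%. Over the list of patterning genes outside Hox, 55.3% of the possible Ezh2cKO calls of 59 interactions were present and 72.3% of the deletion calls, against 85.8% and 73.7% over all named baits.

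The kept share varied among other patterning and mesenchyme baits. In Ezh2cKO the interactions of Ebf3, Mab21l1 and Gja1 had every possible call, those of Tbx2 99.2%, of Pax9 98.2% and of Wnt5a 97.9%. In the deletions Mab21l1, a gene of eye and face development, had every possible call and Ebf3 95.0%, while Pax9 had 69.0%. Lower shares in Ezh2cKO included those of Zic5 (25%), Irx1 (31.2%), Inhba (53.1%), Tbx18 (56.2%), Hoxd13 (60%) and Nr2f2 (68.8%). Each of these baits had 3 to 8 interactions. In the deletions Zic5 (50%), Hoxd13 (56.7%), Inhba (62.5%) and Tbx18 (68.8%) also lay below the 73.7% over all named baits. Irx1 and Nr2f2 lay above it, at 83.3% each. The 3 interactions of Prrx1, a homeobox gene of facial and limb mesenchyme, had every possible Ezh2cKO call and 11.1% of the deletion calls. Gja1 encodes a gap junction protein.

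Across all baits tested with limma for cis calls relative to the library total, 611 (5.91%) rose and 527 (5.09%) fell in Ezh2cKO, together 11.0%. With libraries scaled by their median log ratio to the mean library instead, 537 rose and 568 fell. For the 36kb deletion 5.16% rose and 5.98% fell (11.1% together), and for the 42kb deletion 0.764% rose and 1.08% fell (1.85% together). Of the 276 baits with 5 or more of the interactions, all tested, 5 rose and 28 (10.1%) fell in Ezh2cKO, 5 rose and 28 fell in the 36kb deletion and 0 rose and 9 (3.3%) fell in the 42kb deletion. Because the WT libraries in these tests also chose the interactions, such baits start from high WT values and nothing is read from the lower side. The 3 contrasts share WT libraries. Leaving out single libraries gave 587 to 1299 called baits for the 36kb and 29 to 238 for the 42kb deletion.

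For single baits the values are given without a test, because each was chosen by its WT calls or by how few of its interactions were kept. Tbx18, a T-box factor of mesenchyme with 8 interactions, had 52, 58 and 68 cis calls in WT and 28, 39 and 52 in Ezh2cKO, which touch at 52. Its log2 difference was -0.63 (SE 0.10). The bait of the long noncoding RNA Gm36317, within Vps13d, had 18 interactions, 80, 107.5 and 117 cis calls in WT and 38, 53 and 83 in Ezh2cKO. Its log2 difference was -0.93 in Ezh2cKO and -0.95 in the 36kb deletion, where the libraries had 53, 51, 26 and 65. H1f2, a linker histone gene, had 41, 50 and 55 in WT and 25, 31 and 43 in Ezh2cKO, a log2 difference of -0.67. Chordc1 had 178, 203 and 218 in WT and 147, 166.5 and 205 in Ezh2cKO (-0.29). For Pax9, a paired-box gene of tooth and palate, the difference was -0.30 while 98.2% of the possible calls of its 7 interactions were present.

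Emx2, a homeobox gene of forebrain and urogenital tissue, had a log2 difference of -0.56 in Ezh2cKO and of -0.77 in the 36kb deletion. In the 42kb deletion it had 51 to 59 calls, above the WT highest of 44, with a log2 difference of 0.82. Hoxd12 had a log2 difference of -0.47 in Ezh2cKO. Clasrp, a splicing regulator gene, had 76, 97.5 and 137 cis calls in WT and 21, 52.5 and 104 in Ezh2cKO, with a log2 difference of -0.98. Hoxa2, with none of the interactions and so not chosen by its WT calls, was tested. It had log2 differences of -1.19 in Ezh2cKO (limma adjusted p = 6.6e-05) and -2.44 in the 42kb deletion (limma adjusted p = 0.000956). The labels of both deletions carry the name Hoxa2, and the deletions' positions are not given. Any calls to deleted fragments would be lost with them, and such a loss cannot be told apart here from a change in other contacts. In the 36kb deletion the log2 difference of Hoxa2 was -0.52 (SE 0.24) and was not called (limma adjusted p = 0.162). That contrast is a mean over Md and PA2, and PA2 was not tested apart. Hoxa2 had 17 to 32 cis calls in the 36kb libraries. In WT it had 23, 27.5 and 64 (lowest, median, highest), with the highest values in PA2.

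In the 36kb deletion the Zfp324 libraries had 80, 69, 83 and 89 cis calls against 128, 157.5 and 170 in WT, without overlap, while Ezh2cKO had 125, 161.5 and 182. The log2 difference of the 36kb deletion was -0.84 (SE 0.10). The bait of Spaca6, which holds Mir125a and 9 of the interactions, had log2 differences of -0.50 in the 36kb and -1.02 in the 42kb deletion. The bait of Ell and Fkbp8 had a log2 difference of -0.82 in the 36kb deletion.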

How the data were processed

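Promoter capture Hi-C of 24 libraries was analysed. The deposited files list called interactions with a score, which per the file names comes from CHiCAGO, and every score was at least 5. Coordinates are in GRCm38 (mm10), per the submitters' processing notes. The sources used here do not give the aligner or the caller's version and settings. Scores were not compared between libraries, and unordered fragment pairs on the same chromosome were kept.

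Of the 22203 baits, 16420 were named from RefSeq GRCm38.p6: 12994 by a start site inside, 313 by one within 1 kb, and 3113 by either annotated end of a gene with no start in the table, whose strand was unknown (Smad7, Tbx2, Cdkn1c, Csmd3, Snai2, Wnt5a, Alx4, Ets1, Hoxc5 and Mab21l1 among those named). The latter baits can therefore hold the far end of their gene. A total of 1420 held several genes. Start sites lay in a bait in 75.6% of cases, and in 14.9% after a shift of 50 kb.

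Held-out shares were compared by exact two-sided permutation within tissues, with Benjamini-Hochberg adjustment over 4 tests. The interactions, chosen on WT libraries, were not chosen again in each permutation. Cis calls per bait, as log2 of calls plus 0.5 minus log2 of the library total, entered a model of 12 group means (limma 3.58.1, trended prior, R 4.3.3). It covered 10344 baits averaging 5 calls or more, each mutant against WT of the same tissues. Adjusted p-values are Benjamini-Hochberg over those baits, threshold 0.05. Both were tested on simulated data. The labels call the replicates biological but do not say whether embryos were pooled. The genotype field of PA2 36kb replicate 2 holds another sample's title, and its own title was used.

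Named baits were those with the most interactions, those with 5 or more that were least or most kept in Ezh2cKO or least kept in the deletions, listed genes with the most, and Smad7, Six2, Alx4, Ets1 and Hoxa2. Named pairs were the longest, the highest scoring, those rarely called in Ezh2cKO but called in most deletion libraries, and those joining listed baits. Noncoding, microRNA and unnamed baits, and pairs rarely called in the deletions, were chosen after their values were seen. The interactions and gene lists were chosen with earlier results of these data known.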

Additional observations from a re-analysis of the deposited data

Results flagged for a closer look

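In 107 groups of 4 to 8 libraries, a library that stood apart from the rest of its group was looked for in the calls of the leading baits and in the shares called. It was found in 9 groups, and chance flags about 1 group in 20. Among WT libraries, PA2 replicate 1 had 49 cis calls at the LOC102640985 bait, the lowest of 8, and Mx replicate 2 had 44 at Lpin2, the highest. Among Ezh2cKO libraries, the highest values were 54 at 4930558K02Rik in PA2 replicate 1 and 205 at Chordc1 in Mx replicate 1. The lowest were 59 at the bait of Tmem253 and Zfp219 in Md replicate 1 and, in FNP replicate 2, 65 at the unnamed bait beside Tbx2 (chr11:85848624-85850814). Among 36kb libraries, the highest were 51 at Cdkn1c in Md replicate 2 and 56 at Mir214 in PA2 replicate 1, and the lowest was 47 at Pou3f2 in PA2 replicate 1.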

How the results depend on the processing

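The number of interactions was 2935 at a score of at least 7, 1883 when any E8.5 call within 5 kb counted as present, and 6173 to 8436 on leaving out single libraries, the highest without E8.5 replicate 2. The Ezh2cKO difference in held-out share stayed below 0 under every alternative run, from -2.50 to -4.06 points, with exact permutation p of 0.00154 to 0.0247. Relative to the reference it was 2.36 points (exact p = 0.00926) at a score of at least 7 and -0.183 points (exact p = 0.639) with the 5 kb rule. Replicate numbers did not pair the libraries (correlations -0.034 to 0.014). With the replicate number as a block, the exact permutation p was 0.0156 for Ezh2cKO, 0.125 for the 36kb and 0.5 for the 42kb deletion (both the smallest possible) and 0.406 relative to the reference, and 1120, 1140 and 177 baits were called. Called baits ranged from 820 to 1205 in Ezh2cKO, 587 to 1299 in the 36kb and 29 to 238 in the 42kb deletion on leaving out single libraries. For the 36kb deletion the count was 636 and 733 without Md WT replicates 1 and 2, 625 and 657 without PA2 WT replicates 1 and 2, 639 without Md 36kb replicate 1 and 587 without PA2 36kb replicate 1. For the 42kb deletion it was 29 and 40 without PA2 WT replicates 1 and 2, and 94 and 126 without replicates 1 and 2 of the deletion. With median scaling 537 baits were higher and 568 lower in Ezh2cKO against 611 and 527, 479 and 673 in the 36kb and 67 and 113 in the 42kb deletion. The causes were not tested. Of 4992 alternatives for single baits, 31 lost a call, 32 gained one and 0 changed direction. Choosing the interactions without holding out a tissue fixes WT at 100%, so it gave no difference. Read depth was unknown, which limits every statement on absence.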

Other observations

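The longest interactions lay on chromosomes 1 and 4. Sox17, an endodermal and endothelial factor gene (chr1:4495519-4498339), was joined to Hjurp, a centromere chaperone gene (chr1:88276241-88278577), over 83780.5 kb, in 4 of 8 Ezh2cKO, 2 of 4 36kb and 2 of 2 42kb libraries. The baits of the cell cycle inhibitor genes Cdkn2b and Cdkn2c were joined over 20356.3 kb in 0 Ezh2cKO, 2 36kb and 0 42kb libraries. The Sox17 to Hjurp and the Cdkn2b to Cdkn2c interactions each had an E8.5 call from the same bait within 5 kb. In all 7 interactions (0.125%) spanned over 10 Mb.

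The interactions with the highest median WT scores included a histone gene contact, from H2ac8 to chr13:21723087-21725428 over 1844.7 kb, with a median score of 38.84 and calls in all 14 mutant libraries. Csmd3 and Pcdh10, a protocadherin gene, reached 3958.7 and 3463.4 kb and were also called in all 14. Pnma1 was joined to the bait of Gm46319 and Mideas over 63.6 kb in 4 of 8 Ezh2cKO and all 6 deletion libraries.

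Interactions called in at least 7 Ezh2cKO and at most 1 deletion library numbered 133 (2.38%, against 2.45% of the reference), with a median distance of 40.6 kb. Chosen after their values were seen, Rassf4 to Cxcl12, a chemokine gene, at 490.7 kb and Brms1 to Cd248, a mesenchymal surface protein gene, at 23.6 kb were called in 8 Ezh2cKO libraries, no 36kb library and 1 42kb library. Syf2 to Runx3, a skeletal and blood transcription factor gene, at 180.7 kb was called in 8 Ezh2cKO and no deletion library. Hoxa2 had 64 and 64 cis calls in the PA2 WT libraries and 23 to 29 in the other WT libraries.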
